A study of Mus musculus with 6 samples.

Results

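The genes described here are 7 annexins (Anxa1, Anxa2, Anxa3, Anxa4, Anxa5, Anxa6 and Anxa7) and 3 genes of the S100 family (S100a6, S100a10 and S100a11), whose proteins bind annexins. They were chosen by gene symbol as the abundant annexins and their S100 partners, and all 10 of them were found among the 53465 genes of the deposited table. The choice was not strictly by level, as Anxa8, which was left out, was more abundant than Anxa4, Anxa6 and Anxa7. RNA was sequenced from ID8, a tumour-forming line derived from the ovarian surface epithelium of the mouse. The study compared ID8 cells stably carrying a guide RNA against Nat10 (sgNat10), the gene of an RNA acetyltransferase, with ID8 cells carrying a control guide (sgNC). The 3 libraries labelled KO are taken here as sgNat10, which the submitters' text calls a knockdown, and the 3 labelled WT as sgNC. Each guide is represented by a single line, so guide and line cannot be told apart, and the labels do not say whether the replicates, numbered 4 to 6 in each group, are separate cultures. The p-values therefore only weigh the difference between groups against the spread between libraries of a group, and that spread can be technical.

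Annexins are cytosolic proteins that bind acidic phospholipids when calcium rises, through a conserved core of repeats, while a variable N-terminal tail sets what each of them binds. S100 proteins are small EF-hand proteins that dimerise and dock onto those tails. S100A10 docks onto annexin A2, S100A11 onto annexin A1, and S100A6 onto several annexins. Together they link the plasma membrane to cortical actin and take part in exocytosis and membrane repair, and annexin A1 is also released as a ligand of formyl peptide receptors. In epithelial cells annexins A1 and A2 are known as major substrates of growth factor receptor kinases.

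The 10 genes lie on 7 chromosomes of mm10, and the 3 S100 genes share chromosome 3 with Anxa5. Anxa1 (ENSMUSG00000024659) occupies bases 20373428 to 20390944 of chromosome 19 on the minus strand. Anxa4 (ENSMUSG00000029994) occupies bases 86736840 to 86793584 of chromosome 6 on the minus strand. On the plus strand lie Anxa2 (chromosome 9, 69453620 to 69491795), Anxa3 (chromosome 5, 96793339 to 96845966) and S100a6 (chromosome 3, 90612882 to 90624181). On the minus strand lie Anxa5 (chromosome 3, 36448923 to 36475894), Anxa6 (chromosome 11, 54979108 to 55033445) and Anxa7 (chromosome 14, 20455260 to 20480133). S100a11 and S100a10 are close neighbours, from 93520488 to 93526287 and from 93555080 to 93564643 of chromosome 3, both on the plus strand. The paralogs are well diverged. Over an alignment of coding sequences with Anxa1 (1038 bases), identical columns made up 59.9% for Anxa2, 55.3% for Anxa3, 54.0% for Anxa4 and 53.4% for Anxa5, and 44.9% for Anxa7 and 37.0% for Anxa6, which have longer coding sequences (1455 and 2019 bases). No stretch of 50 bases in the transcripts of Anxa1, Anxa2, Anxa5, Anxa6, Anxa7, S100a6 or S100a10 occurs in a transcript of another gene, so their counts are not shared with a copy at that length. For Anxa3 1.79% and for Anxa4 0.715% of such stretches are shared. S100a11 is the exception, with 41.1% of its 50-base stretches shared with processed pseudogenes, and its counts are uncertain to that extent. Those 3 pseudogenes had between 0 and 6 counts in any library. Exons of Anxa2, Anxa3 and Anxa4 overlap other genes over 2.63%, 3.07% and 1.61% of their length, and these genes had no counts.

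RefSeq promoter sequences (GRCm38.p6, 250 bases before to 50 after the start of transcription) were at hand for 7 of the 10 genes. The following are shown because they belong to the member that was called higher (Anxa1), to its closest paralog by coding sequence, which was not called (Anxa2), and to the member with the lowest estimate (Anxa4). Capitals mark matches to any of 6 motifs on either strand.
Anxa1, chr19:20390622-20390921, minus strand: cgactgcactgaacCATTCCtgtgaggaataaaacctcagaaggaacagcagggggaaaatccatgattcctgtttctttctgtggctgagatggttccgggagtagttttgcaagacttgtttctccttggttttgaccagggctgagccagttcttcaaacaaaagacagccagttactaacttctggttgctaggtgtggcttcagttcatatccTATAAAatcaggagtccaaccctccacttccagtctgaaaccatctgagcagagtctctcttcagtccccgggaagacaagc
Anxa2, chr9:69453433-69453732, plus strand: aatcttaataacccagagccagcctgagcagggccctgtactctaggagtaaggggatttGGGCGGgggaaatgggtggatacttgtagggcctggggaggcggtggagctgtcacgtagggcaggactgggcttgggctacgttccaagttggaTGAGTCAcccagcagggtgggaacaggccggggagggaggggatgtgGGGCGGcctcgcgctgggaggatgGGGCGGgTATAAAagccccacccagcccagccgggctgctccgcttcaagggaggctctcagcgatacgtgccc
Anxa4, chr6:86793535-86793834, minus strand: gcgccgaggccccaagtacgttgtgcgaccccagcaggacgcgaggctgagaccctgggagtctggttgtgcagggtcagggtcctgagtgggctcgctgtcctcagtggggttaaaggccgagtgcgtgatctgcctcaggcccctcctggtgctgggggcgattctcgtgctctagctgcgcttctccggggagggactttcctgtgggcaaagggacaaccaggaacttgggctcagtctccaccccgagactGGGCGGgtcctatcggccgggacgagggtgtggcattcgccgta
Both strands were searched for each motif, and its share is that of 32817 RefSeq promoters of this length with a match. The core promoter element TATAAA was found in 13.6% of promoters. The element CCAAT, bound by NF-Y, was found in 37.4% of promoters. The GC box GGGCGG, bound by Sp1, was found in 35.6% of promoters. The AP-1 motif TGANTCA was found in 7.81% of promoters. The TEAD motif GGAATG was found in 14.7% of promoters. The glucocorticoid receptor half-site AGAACA was found in 19.0% of promoters. The Anxa1 window held a TATA box at position -32 from the start and a TEAD motif at -236 (as CATTCC), and none of the other 4. The Anxa2 window held a TATA box at -17, an AP-1 motif at -95 and 3 GC boxes. The Anxa4 window held a single GC box, 6 bases after the start. GC content was 47.3% in the Anxa1 window, 63.7% in that of Anxa2 and 65.3% in that of Anxa4, against a median of 52.7% over all promoters. No 2 matches overlap in these windows. A match is a description of the letters and does not show that a factor binds there.

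The libraries were shallow and differed in depth, with 2234305 to 3126208 counts in those labelled KO and 1687466 to 2148715 in those labelled WT. Nat10 itself had 315, 133 and 445 counts in the KO-labelled libraries and 168, 128 and 292 counts in the WT-labelled libraries, a log2 fold change of -0.07 ± 0.48 (SE) with a 95% interval from -1.09 to 0.94. A fall of the targeted mRNA was thus not detectable, and every direction below is that of libraries so labelled. Log2 expression correlated between libraries of the same group at 0.571 to 0.705 and between groups at 0.543 to 0.630 (Pearson's r across 8200 genes, which are not independent). Pairs of KO-labelled libraries, at 0.571 to 0.602, lay within the range between groups, and pairs of WT-labelled libraries stood at 0.623 to 0.705. Leukocyte, endothelial and adipocyte markers summed to between 0 and 14.5 CPM (counts scaled by library size) in every library. The 8 epithelial and mesothelial markers summed to 4180 to 4827 CPM in KO-labelled libraries and 5854 to 6330 CPM in WT-labelled libraries, but did not move together. In edgeR Krt18 and Krt19 were called lower and Msln was called higher (1636 ± 209 CPM in KO-labelled and 789 ± 83.5 CPM in WT-labelled libraries), while Upk3b and Wt1 were not called. Krt8 was not called either, at 36.6 ± 39.0 CPM in KO-labelled and 198 ± 46.2 CPM in WT-labelled libraries (log2 fold change -2.42), without overlap. Krt7 had 6 counts in WT-labelled replicate 4 and no other, and Pax8 had no count in any library. The 4 fibroblast markers summed to 967 to 1325 CPM in KO-labelled libraries and 752 to 780 CPM in WT-labelled libraries, nearly all of it Dcn. They too went both ways, with Dcn at a log2 fold change of 0.67 and Col1a1 at -3.44 (6.17 ± 8.77 CPM in KO-labelled and 67.1 ± 21.9 CPM in WT-labelled libraries). Neither was called in edgeR, while DESeq2 called both (adjusted p = 0.0047 for Dcn and 0.0251 for Col1a1). Pdgfra and Pdgfrb, which define fibroblasts, were at or near 0. These marker levels moved with the groups, and their part in the results below was not tested. In such bulk samples fewer cells of a type and less RNA per cell cannot be told apart.

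Of the 10 genes, Anxa1 was called, as higher in the KO-labelled libraries, and none was called lower. All 10 passed the filter on low counts. Over all 8200 tested genes 0.402% were called in either direction, 0.183% as higher and 0.22% as lower, at an adjusted p under 0.05 in edgeR's quasi-likelihood test. At an unadjusted p under 0.05, which 6.49% of all tested genes met, stood 3 of the 10 genes: Anxa1 and Anxa3 as higher and Anxa4 as lower. The same 3 had KO-labelled values wholly above or wholly below the WT-labelled values, as did 14.9% of all tested genes (6.94% above and 7.93% below). These shares are over genes of all levels. Of the 1740 tested genes of at least 100 CPM, 10.2% were lower at an unadjusted p under 0.05, against 3.79% of all tested genes. The share as higher at that level was not counted. The median log2 fold change of the 10 genes was -0.03, and that of all tested genes was -0.02.

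**Figure D1:**
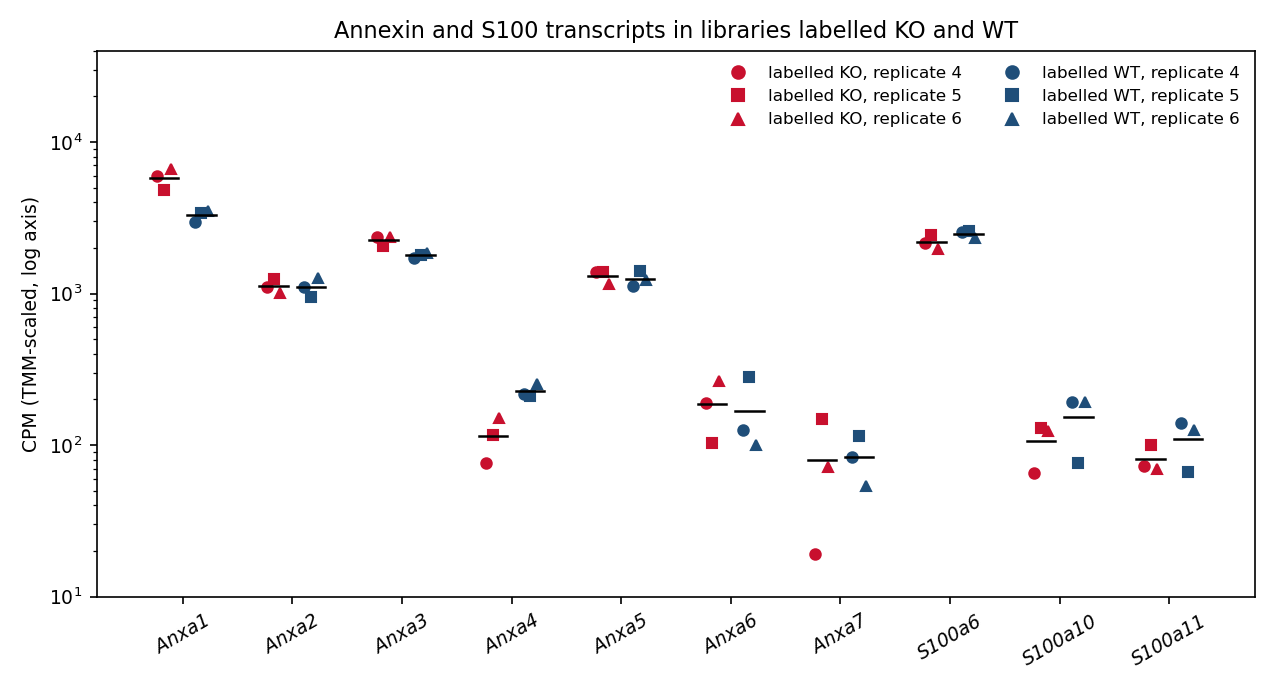
CPM of each gene, with library sizes adjusted by TMM (a trimmed mean of ratios), (log axis) in each of the 3 KO-labelled (red, left) and 3 WT-labelled (blue, right) libraries, with the mean of each group as a black bar. Anxa1 sits between 4845 and 6648 CPM in the KO-labelled libraries, above all 3 WT-labelled libraries, Anxa3 is also separated upward and Anxa4 downward, and the other 7 genes overlap. CPM is not scaled by gene length, so heights compare libraries and not genes.

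Anxa1 encodes annexin A1, known for restraining phospholipase A2 and for ending inflammation. It was the annexin with the most counts in every library, 15246, 11316 and 21429 in KO-labelled replicates 4, 5 and 6, and 4906, 6770 and 6044 in WT-labelled replicates 4, 5 and 6. Scaled for depth these were 5948, 4845 and 6648 CPM in KO-labelled libraries and 2983, 3383 and 3494 CPM in WT-labelled libraries. The lowest KO-labelled library, replicate 5, stood well above the highest WT-labelled library, replicate 6. Anxa1 averaged 5814 ± 909 CPM in KO-labelled libraries and 3287 ± 269 CPM in WT-labelled libraries (SD, n = 3 each). This was a rise of 1.77-fold. The log2 fold change was 0.82 ± 0.14 (SE), its 95% interval ran from 0.52 to 1.13, and edgeR put the adjusted p at 0.0186. Its p ranked 19 among the 8200 genes. DESeq2, which called 2.85% of tested genes, gave Anxa1 an adjusted p of 4.2e-06, and limma-voom, which called 0.524%, gave 7.3e-05. With a single library left out the estimate ran from 0.71 to 0.94, but Anxa1 passed in edgeR in 1 of the 6 fits, without KO-labelled replicate 5 (adjusted p = 0.0358). The adjusted p was 0.142 without KO-labelled replicate 4 and 0.139 without replicate 6, and 0.0964, 0.234 and 0.135 without WT-labelled replicates 4, 5 and 6. Among all genes Anxa1 ranked 5, 8 and 5 by count in the KO-labelled libraries and 16, 13 and 10 in the WT-labelled libraries.

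The abundant paralogs Anxa2, Anxa3 and Anxa5 were not called. Anxa2, whose product tethers membranes to actin and binds plasminogen at the cell surface, stood at 1112, 1240 and 1005 CPM in KO-labelled libraries and at 1106, 946 and 1274 CPM in WT-labelled libraries. The groups overlapped, and the log2 fold change was 0.01 ± 0.18 (SE, edgeR adjusted p = 0.99996), with a 95% interval from -0.37 to 0.40 that lies below the Anxa1 interval. Anxa5, whose product is used to detect phosphatidylserine on dying cells, stood at 1382, 1390 and 1152 CPM in KO-labelled libraries and at 1118, 1400 and 1232 CPM in WT-labelled libraries. Its estimate was 0.07 ± 0.17, with an interval from -0.30 to 0.43 that again stays below that of Anxa1. The sign of both estimates near 0 turned in some fits with a library left out.

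Anxa3 came nearest to Anxa1 in direction. The Anxa3 product is an annexin found on neutrophil granules and in many carcinomas. It had 2375, 2050 and 2349 CPM in KO-labelled libraries and 1726, 1799 and 1842 CPM in WT-labelled libraries, so every KO-labelled library was above every WT-labelled library. Anxa3 averaged 2258 ± 181 CPM in KO-labelled and 1789 ± 58.9 CPM in WT-labelled libraries (SD, n = 3 each), a 1.26-fold difference with a log2 fold change of 0.34 ± 0.15 (SE), whose interval ran from 0.02 to 0.65. This did not pass the test (unadjusted p = 0.0368, adjusted p = 0.687 by edgeR, 0.158 by DESeq2). The Anxa3 interval overlaps that of Anxa1, which ran from 0.52 to 1.13. The Anxa3 estimate ran from 0.30 to 0.41 with a library left out.

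Anxa4 had the lowest estimate of the 10 genes. Its product is an annexin of epithelial membranes that modulates chloride conductance. Counts were 194, 274 and 488 in KO-labelled libraries and 360, 422 and 437 in WT-labelled libraries, which scaled to 75.7, 117 and 151 CPM in KO-labelled libraries and to 219, 211 and 253 CPM in WT-labelled libraries. Once scaled, every KO-labelled library lay below every WT-labelled library, whereas the raw count of KO-labelled replicate 6, the deepest library, was the highest of all. The log2 fold change was -0.99 ± 0.34 (SE) with an interval from -1.71 to -0.26, the unadjusted p was 0.0113, and the gene did not pass over all genes (adjusted p = 0.479 by edgeR, 0.0722 by DESeq2).

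Anxa6 and Anxa7 were too variable to place. Anxa6, whose product carries a duplicated annexin core, stood at 190, 103 and 266 CPM in KO-labelled libraries and at 126, 280 and 100.02 CPM in WT-labelled libraries. Anxa7, also called synexin, stood at 19.1, 149 and 71.4 CPM in KO-labelled libraries and at 83.3, 115 and 53.8 CPM in WT-labelled libraries. The replicates of Anxa7 thus spanned a wider range than the groups were apart, with a coefficient of variation of 81.9% in KO-labelled and 36.4% in WT-labelled libraries. The log2 fold changes were 0.14 ± 0.43 for Anxa6 and -0.08 ± 0.63 for Anxa7 (SE), with intervals from -0.78 to 1.06 and from -1.42 to 1.27 that hold rises as large as that of Anxa1. Whether these genes moved with Anxa1 was not detectable at this spread between libraries. The estimate of Anxa7 turned positive with library totals in place of TMM (0.052).

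**Figure D2:**
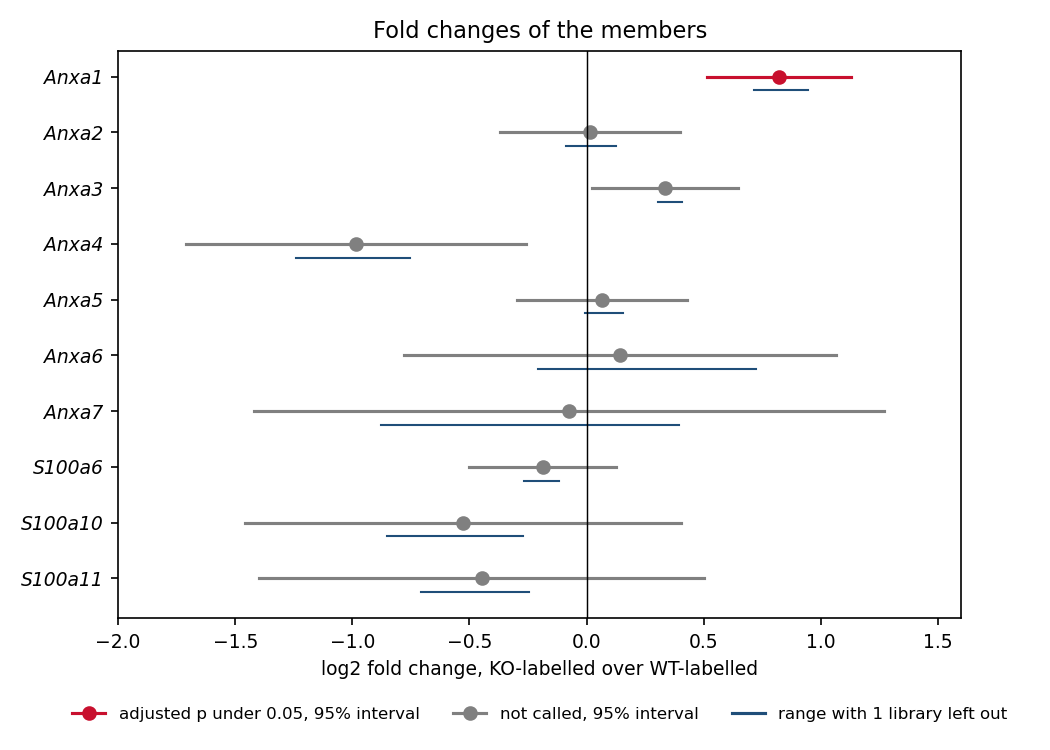
Log2 fold change of each gene, KO-labelled over WT-labelled libraries, with its 95% interval from edgeR (red where the adjusted p is under 0.05, grey otherwise) and, in blue beneath, the range of the estimate when any single library is left out. Anxa1 is at 0.82 with an interval clear of those of Anxa2 and Anxa5, which straddle 0. The interval of Anxa3 overlaps that of Anxa1, and the intervals of Anxa6 and Anxa7 are wide.

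The contrast of Anxa1 with its paralogs was also read within each library, as the ratio of counts, which needs no scaling between libraries. The ratio of Anxa1 to Anxa2 was 5.35, 3.91 and 6.62 in KO-labelled libraries and 2.70, 3.58 and 2.74 in WT-labelled libraries. That of Anxa1 to Anxa5 was 4.30, 3.48 and 5.77 in KO-labelled libraries and 2.67, 2.42 and 2.84 in WT-labelled libraries. That of Anxa1 to Anxa3 was 2.50, 2.36 and 2.83 in KO-labelled libraries and 1.73, 1.88 and 1.90 in WT-labelled libraries. In each of these 3, that to Anxa3 included, the lowest KO-labelled ratio exceeded the highest WT-labelled ratio. The shift in the mean log2 ratio was 0.80 against Anxa2, 0.75 against Anxa5 and 0.48 against Anxa3, or 1.74-fold, 1.68-fold and 1.40-fold. Against Anxa4 it was 1.85 (3.61-fold), with ratios of 78.4, 41.2 and 43.9 in KO-labelled and 13.6, 16.02 and 13.8 in WT-labelled libraries. Each of these 4 shifts had p = 0.1 in a two-sided exact permutation test over the 6 libraries, the smallest p that 3 against 3 allow, and 0.15 after Benjamini-Hochberg adjustment over the 6 ratios tested. Against Anxa6 the shift was 0.63 (exact permutation p = 0.4) and against Anxa7 1.26 (exact permutation p = 0.3), with overlapping groups. All 6 ratios share the Anxa1 counts, so they are not independent of each other or of the rise of Anxa1 itself. Against Anxa2 and Anxa5, whose own estimates were near 0, the shifts largely restate that rise (log2 fold change 0.82). How often the ratio of Anxa1 to other genes separates the groups was not tested.

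**Figure D3:**
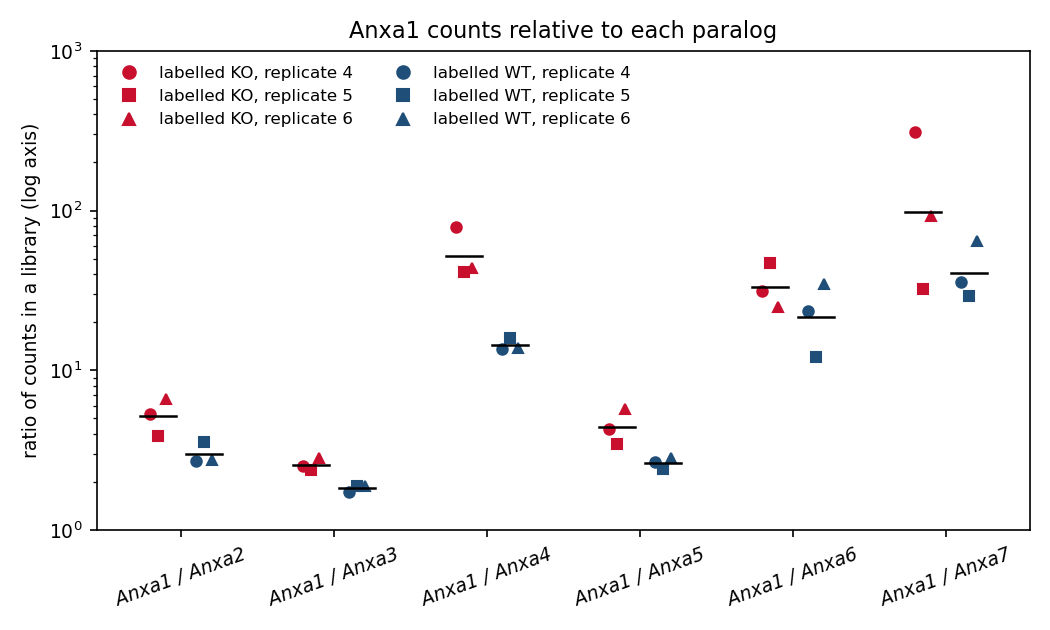
Ratio of Anxa1 counts to the counts of each paralog in the same library (log axis), for the 3 KO-labelled (red, left) and 3 WT-labelled (blue, right) libraries, with the geometric mean of each group as a bar. The ratios to Anxa2, Anxa3, Anxa4 and Anxa5 do not overlap between groups, and those to Anxa6 and Anxa7 do.

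The annexins made up a larger share of each KO-labelled library than of any WT-labelled library. The 12 annexin genes of the table made up 1.17%, 1.07% and 1.24% of all counts in KO-labelled libraries and 0.753%, 0.796% and 0.846% in WT-labelled libraries. Of these unscaled totals Gm42418, whose reads overlap ribosomal RNA, took 9.32% to 10.1% in KO-labelled and 12.4% to 13.9% in WT-labelled libraries. After TMM scaling the 12 annexins still summed higher, to 11292 ± 958 CPM in KO-labelled and 8374 ± 584 CPM in WT-labelled libraries (SD, n = 3 each). Anxa1 made up 51.3%, 47.4% and 55.1% of annexin counts in KO-labelled libraries and 38.6%, 39.6% and 39.5% in WT-labelled libraries. Its share was nearly fixed among the WT-labelled libraries and varied more among the KO-labelled ones. Without Anxa1 the annexins summed to 5479 ± 147 CPM in KO-labelled and 5088 ± 316 CPM in WT-labelled libraries (SD, n = 3 each). The groups barely missed each other, with a lowest KO-labelled sum of 5374 and a highest WT-labelled sum of 5362 CPM.

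None of the 3 S100 genes was called. S100a6, or calcyclin, a calcium sensor of dividing cells, had 2159, 2440 and 1957 CPM in KO-labelled libraries and 2560, 2598 and 2311 CPM in WT-labelled libraries. Only KO-labelled replicate 5 reached the WT-labelled range, and the log2 fold change was -0.19 ± 0.15 (SE) with an interval from -0.50 to 0.13. S100a11, the partner of annexin A1, had 73.3, 99.8 and 69.5 CPM in KO-labelled libraries and 139, 67.0 and 125 CPM in WT-labelled libraries, with WT-labelled replicate 5 the lowest of all. Its log2 fold change was -0.45 ± 0.44 with an interval from -1.40 to 0.50, whose upper end lies just below the lower end of the Anxa1 interval. S100a10, the partner of annexin A2, had 65.9, 129 and 124 CPM in KO-labelled libraries and 192, 76.4 and 192 CPM in WT-labelled libraries, a log2 fold change of -0.53 ± 0.44 with an interval from -1.46 to 0.40. Each had an adjusted p of 0.99996 in edgeR, and all 3 estimates were below 0 in each fit with a library left out. Without WT-labelled replicate 5, in which S100a10 and S100a11 were both low, their estimates were -0.85 and -0.71. S100a6 made up 88.5% to 93.2% of S100 counts in KO-labelled libraries and 86.3% to 92.0% in WT-labelled libraries.

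Scaled by the length of merged exons, the order of the genes was nearly the same in both groups. Anxa1 was highest in the KO-labelled libraries at 1997 ± 312 CPM per kb, followed by S100a6 at 1599 ± 177, and their ranges overlapped. In the WT-labelled libraries S100a6 came first at 1821 ± 114 CPM per kb and Anxa1 was next at 1129 ± 92.4, with ranges that did not meet (SD, n = 3 per group). In both groups the order then ran through Anxa5 (736 ± 76.1 in KO-labelled and 703 ± 79.8 in WT-labelled libraries), Anxa3 (620 ± 49.6 in KO-labelled and 491 ± 16.2 in WT-labelled), Anxa2 (299.9 ± 31.6 in KO-labelled and 297 ± 44.0 in WT-labelled), S100a11, S100a10, Anxa6, Anxa4 and Anxa7. Neighbours overlapped for Anxa5 and Anxa3, S100a10 and Anxa6, and Anxa4 and Anxa7 in KO-labelled libraries. In WT-labelled libraries they overlapped for Anxa2 and S100a11, S100a11 and S100a10, S100a10 and Anxa6, and Anxa6 and Anxa4. The merged exons include alternative transcripts, so these lengths exceed those of single mRNAs and the order is approximate.

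Other members of the families were few in this line. Of the other annexins only Anxa8 passed the filter, at 413 ± 85.3 CPM in KO-labelled and 431 ± 138 CPM in WT-labelled libraries (SD, n = 3 each), with a log2 fold change of -0.06 ± 0.27 (SE). These averages were above those of Anxa4, Anxa6 and Anxa7 in both groups, and Anxa8 was not part of the ratios or the order of levels above. Anxa9 had 26 and 41 counts in WT-labelled replicates 4 and 6, Anxa11 had 39 and 31 in WT-labelled replicates 4 and 5 and Anxa10 had 15 in WT-labelled replicate 4, and all 3 genes had no count in the remaining WT-labelled libraries or in any KO-labelled library. These were too low to test, and a count of 0 does not show absence. Anxa13 had no count in any library. Of 19 further genes, made up of S100 genes, their fused-type relatives and S100pbp, 15 had no count in any library, among them S100a4, S100a8 and S100a9. S100a1 had 42, 208 and 12 counts in KO-labelled and 58, 65 and 23 in WT-labelled libraries, and S100a13 had 5, 1 and 43 in KO-labelled and 57, 100 and 0 in WT-labelled libraries. S100a16 had 9 counts in WT-labelled replicate 4 and no other. The S100P-binding protein gene S100pbp had 38, 26 and 0 counts in KO-labelled and 15, 28 and 1 in WT-labelled libraries. No gene of these 2 lists passed the test, as 0.402% of all tested genes did.

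Among 19 tested genes of binding partners and effectors, 1 passed as higher and none as lower, with a median log2 fold change of -0.05. Over all tested genes 0.183% passed as higher and 0.22% as lower. Ahnak, a giant scaffold protein that docks onto the annexin A2 and S100A10 complex, stood at 1334, 1654 and 2632 CPM in KO-labelled libraries and at 713, 936 and 1020 CPM in WT-labelled libraries, without overlap. Ahnak did not pass in the main test: its log2 fold change was 1.07 ± 0.23, with an adjusted p of 0.0679 in edgeR, 1.8e-04 in DESeq2 and 0.0232 in limma-voom, and with the replicate number as a block it passed (0.0246). Pdcd6ip, or ALIX, stood at 256 ± 14.8 CPM in KO-labelled and 340 ± 42.7 CPM in WT-labelled libraries and was not called. The plasminogen activators Plat and Plau, the receptor Plaur and the phospholipase Pla2g4a were not called either. The formyl peptide receptors Fpr1, Fpr2 and Fpr3 had no count in any library.

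Of 10 tested plasma membrane repair genes none passed (median log2 fold change -0.16). Over all tested genes 0.402% passed, the share to set beside each list in turn. Cavin1, a coat protein of caveolae, had the smallest p, at 282 ± 75.7 CPM in KO-labelled and 497 ± 48.6 CPM in WT-labelled libraries (SD, n = 3 each; adjusted p = 0.346 by edgeR and 0.0256 by DESeq2). The membrane-shaping ATPases Ehd1 and Ehd2 had log2 fold changes of -0.90 ± 0.45 and 0.36 ± 0.39 (SE). Of 14 tested EF-hand calcium sensors none passed (median 0.01), with Nucb1 at -1.04 ± 0.42 and Rcn1 at 1.08 ± 0.56. Anxa1 is a known glucocorticoid-induced gene. Of 10 tested genes of a list of the glucocorticoid receptor gene and genes induced through it none passed (median 0.01). Whether that response bears on the level of Anxa1 was not tested. Dusp1, a phosphatase of MAP kinases, stood at 101 ± 14.8 CPM in KO-labelled and 36.3 ± 13.2 CPM in WT-labelled libraries (adjusted p = 0.510 by edgeR, 0.0561 by DESeq2). In this list the groups did not overlap for 1 gene upward (Dusp1) and 1 gene downward. Sgk1 and Cebpd had log2 fold changes of -0.47 ± 0.27 and 3.33 ± 2.19, and the receptor gene Nr3c1 had -0.70 ± 0.71. The Cebpd estimate rested on single libraries, at 1.47 without KO-labelled replicate 5 and 9.37 without WT-labelled replicate 4.

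The genes whose profile over the 6 libraries was most like that of Anxa1 were sought among 4533 genes by the root mean square difference of centred log2 CPM. The closest was the laminin chain gene Lamb1 (0.06), followed by the mechanosensitive channel Piezo1 (0.08), the hyaluronan receptor Cd44 and the vesicle fusion gene Stxbp2 (0.11 each), the secreted protease Htra1 (0.11), talin Tln1 (0.12), Mdn1 of ribosome assembly (0.13) and spectrin Sptan1 (0.14). None of these 8 was called in edgeR, with Cd44 nearest at 641 ± 50.2 CPM in KO-labelled and 332 ± 8.72 CPM in WT-labelled libraries (adjusted p = 0.0657). DESeq2 called 6 of the 8, all but Piezo1 and Stxbp2, and limma-voom called Htra1 and Tln1. Cd44, Htra1 and Tln1 also passed in edgeR with library totals or without a filter on low counts. Their separation between groups follows from the likeness by which they were picked. No other annexin or S100 gene was among them. The profiles nearest to Anxa2 were those of Vars (0.04), Atrx (0.08) and Spty2d1 (0.10), and those nearest to S100a11 were Ppa2 (0.13), Oxa1l (0.15) and Ubqln4 (0.17). All 6 had overlapping groups.

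Genes near Anxa1, Anxa3 and Anxa4, the members whose groups did not overlap, were also read. Of 4 tested genes within 2 Mb of Anxa3 none passed, and 1 (25%) was lower at an unadjusted p under 0.05 in edgeR. This was Cnot6l, with a log2 fold change of -1.02 ± 0.44 (SE). Of 9 tested genes within 2 Mb of Anxa1 none passed, none had an unadjusted p under 0.05, and the nearest abundant gene, Aldh1a1, was at 221 ± 40.5 CPM in KO-labelled and 315 ± 45.5 CPM in WT-labelled libraries (log2 fold change -0.51 ± 0.27). Of 28 tested genes within 2 Mb of Anxa4 none passed over all genes, but 7 (25%) were lower at an unadjusted p under 0.05, against 3.79% of all tested genes. These 7 were Exoc6b, Cct7, Dusp11, Pcbp1, Copg1, Rpn1 and Sec61a1, with log2 fold changes from -1.09 to -0.54. Over all 28 neighbours 17 estimates (60.7%) were below 0, against 51% of all tested genes. The 3 nearest tested genes, Gmcl1, Snrnp27 and Aak1, had estimates above 0 (1.07 ± 1.83, 1.15 ± 0.79 and 1.14 ± 1.51, SE). Of the 9 neighbours of at least 100 CPM all had estimates below 0 and 7 met the unadjusted threshold as lower, against 56.6% and 10.2% of the 1740 tested genes of that level. The window and the level were chosen after the values were seen. Copg1, Rpn1 and Sec61a1 serve the secretory pathway, and Cct7 is a subunit of a chaperonin. Whether the level of Anxa4 belongs to the gene or to its region was not tested.

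**Figure D4:**
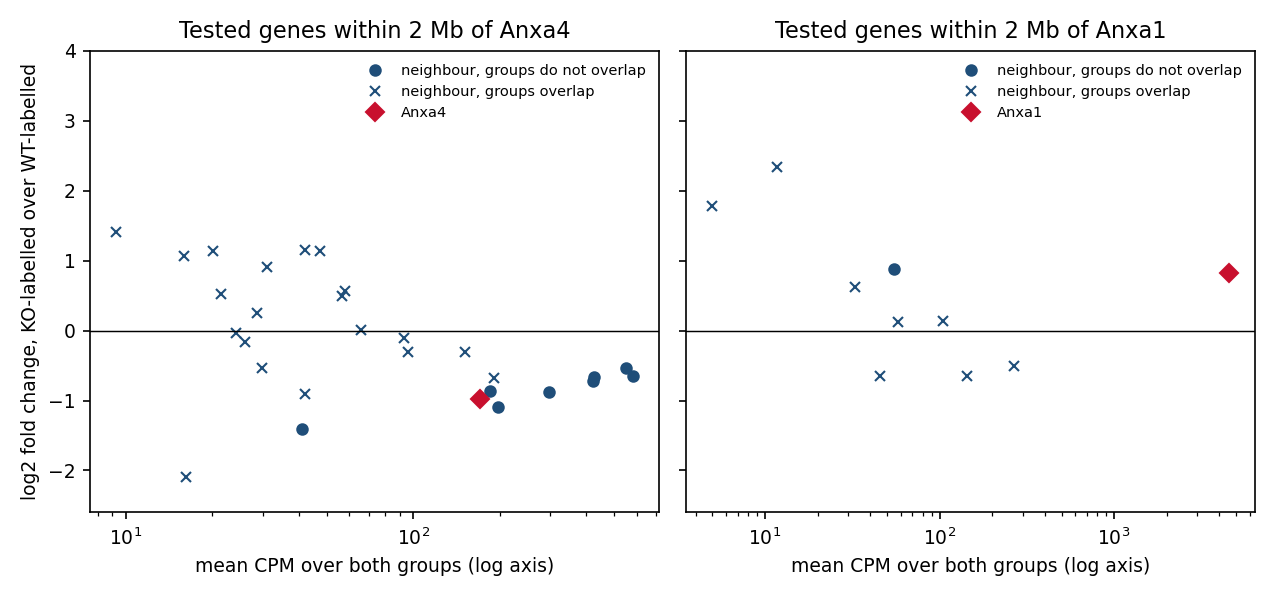
Log2 fold change (KO-labelled over WT-labelled) against mean CPM (log axis) of the tested genes within 2 Mb of Anxa4 (left) and of Anxa1 (right), with the member itself as a red diamond, filled circles for genes whose groups do not overlap and crosses for the others. The 9 neighbours of Anxa4 above 100 CPM lie between -1.09 and -0.31 (Anxa4 is at -0.99), those of lower level lie on both sides of 0, while the 3 neighbours of Anxa1 above 100 CPM lie between -0.64 and 0.14, below Anxa1 at 0.82.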

How the data were processed

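Poly(A) RNA of 3 KO-labelled and 3 WT-labelled ID8 libraries was sequenced, per the labels' protocols. The authors deposited unnormalized counts, 1 whole number for each gene and library. The submitters' processing notes name fastp, HISAT2 2.0.5, featureCounts 1.5.0-p3 and build mm10. The sources used here do not state the strand mode or annotation release. Columns were matched to samples through the labels. Of 53465 gene IDs, 53274 matched a GENCODE M21 symbol.

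Genes were tested with edgeR 4.0.16 (R 4.3.3): filterByExpr with a minimum count of 10 (8200 genes), TMM, a robust quasi-likelihood fit with group as the sole term, two-sided, Benjamini-Hochberg over all tested genes, threshold 0.05. CPM uses TMM-scaled totals. Ratios within a library add 0.5 to each count and were tested by exact permutation. Coding sequences were aligned with Biopython 1.88. Likeness of profiles used log2 CPM with a prior count of 2. The edgeR script was tested on simulated counts. Intervals are at 95%.

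Alternatives were DESeq2 1.42.0, limma-voom (limma 3.58.1), a fit with the replicate number as block, other scalings and filters, a call threshold of 0.01, a ratio pseudocount of 2 and leaving out each library. Leaving out Gm42418, whose reads overlap ribosomal RNA, and thinning to 1687466 counts were added after seeing the data. The members and lists were chosen with earlier results of these data known. Named were all members, the tested genes of the other annexin and S100 lists, genes called or with the 3 smallest p-values in each other list (2 of these genes are not reported here), and the closest profiles. Other partners and the neighbours of Anxa1, Anxa3 and Anxa4 were named after their values were seen.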

Additional observations from a re-analysis of the deposited data

How the results depend on the processing

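Anxa1 was the single member called under every setting run on all 6 libraries at a threshold of 0.05, and at a threshold of 0.01 no member was called. With a library left out, 0 to 1 members were called, and over all genes the count of 33 fell to between 6 and 18. It was 234 by DESeq2, 91 without a filter on low counts and 16 at a threshold of 0.01. Filtering at 1 CPM in 3 libraries kept 8635 genes, more than the main filter, and called 31. Of the genes in the other lists, 1 passed in the main fit, 3 in DESeq2, and 2 each with library totals, without a filter and with the replicate number as a block. Between 0 and 1 passed with a library left out. Library totals in place of TMM moved the median of all genes by 0.11 on the log2 scale, and split the 43 calls into 27 higher and 16 lower, against 15 and 18.

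Same-numbered libraries did not deviate together (r from -0.02 to -0.003), so the numbers were not taken as pairs. With the replicate number as a block 38 genes were called, Anxa1 among them (log2 fold change 0.81), and the estimates of S100a1 and S100pbp turned to -0.53 and -0.64. Limma-voom put them at -0.93 and -0.88. Library totals turned Anxa7 (0.052), Anxa8 (0.047) and Atrx (0.027). Estimates that turned with a library left out ran from -0.089 to 0.13 for Anxa2, -0.0087 to 0.15 for Anxa5, -0.21 to 0.72 for Anxa6, -0.88 to 0.39 for Anxa7, -0.24 to 0.22 for Anxa8, -1.42 to 0.96 for S100a1, -0.50 to 0.83 for S100pbp, -0.42 to 0.023 for Oxa1l, -0.058 to 0.14 for Vars and -0.16 to 0.0012 for Atrx. The cause was not tested. The 6 ratios of Anxa1 to a paralog kept their sign in all settings tried, and with a library left out ran from 0.21 to 0.98 against Anxa6 and 0.43 to 2.05 against Anxa7. The intervals of Anxa6, Anxa7, S100a10 and S100a11 were the widest of the 10 genes, which limits what can be said of them, and the reason was not tested.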
